A study of Mus musculus with 20 samples.

Results

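The sarcomere and calcium-handling genes of skeletal muscle were followed in the femoral shaft of Hyp mice and their normal littermates. The list holds 43 genes, chosen by symbol, of which 14 belong mainly to fast fibres and 8 to slow fibres. A further 8 are structural genes of both fibre types, 4 serve calcium release, 5 serve energy supply, and 4 are also used outside skeletal muscle. Of their 85 probe sets on the array, 79 were called present on 5 or more of 20 arrays and were tested, among 27141 probe sets in all. Every one of the 43 genes kept at least 1 probe set, among 12430 genes measured, and each gene is described by its brightest one unless another is named.

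The mice were 5 weeks old and on the C57BL/6J background. Males were normal or hemizygous for Hyp (Hyp/Y), females were normal or heterozygous (Hyp/+), and each of these 4 groups had 5 arrays. Hyp mice lack the 3′ part of Phex, a gene on the X chromosome whose membrane endopeptidase is made by osteoblasts and osteocytes, which causes renal phosphate wasting and poor bone mineralization. RNA of 2 mice was pooled for each array, so 40 mice were used. The arrays came in 5 series, in each of which the 4 groups were littermates and were handled in parallel. The bone was the diaphysis of the femora, flushed to remove marrow; no step that strips muscle is given in the sources used here. Pooling averages over mice, so p-values measure the spread between pools.

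Contraction in skeletal muscle starts when a nerve impulse opens the ryanodine receptor of the sarcoplasmic reticulum. Calcium then binds troponin, tropomyosin shifts on the actin filament, and myosin heads pull until a calcium pump clears the cytosol. Fast and slow fibres build the same machine from different genes for myosin, troponin, light chains, calsequestrin and calcium pump, so these genes tell the fibre types apart. Their products are used as markers of muscle.

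Array quality and the mutated gene were checked first. The brighter Phex probe set read 2391 to 4002 in normal males, 3388 to 5764 in normal females, 356 to 847 in Hyp females and 3.8 to 48.2 in Hyp males, where it was called present on 0 of 5 arrays. Whether its probes lie in the lost 3′ part was not looked up, so the values check the labels only as far as they part the groups. Present calls made up between 49.3% and 56.9% of the probe sets of an array. The ratio of 3′ to 5′ actin signal, a measure of RNA integrity, was higher in the Hyp array in 9 of 10 pairs, with a mean log2 difference of 0.14 ± 0.09 (SD, n = 10 pairs, exact 2-sided sign-flip p = 0.00391). The same ratio for Gapdh differed by 0.06 ± 0.17 (SD, n = 10 pairs, exact 2-sided sign-flip p = 0.258).

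The stretches upstream of 4 members are shown: Acta1 and Myh4 as markers of the list and of fast fibres, Tnnt1 and Myl3 as slow fibre genes. No expression result below rests on these sequences. Each line gives the 250 bases before the gene's start, 5′ to 3′, from RefSeq on build GRCm38.p6. Capitals mark matches to a TATA box spelled TATAAA and to the CArG box, the binding motif of serum response factor, on either strand.
Acta1, skeletal alpha-actin, chr8:123894776-123895025, minus strand: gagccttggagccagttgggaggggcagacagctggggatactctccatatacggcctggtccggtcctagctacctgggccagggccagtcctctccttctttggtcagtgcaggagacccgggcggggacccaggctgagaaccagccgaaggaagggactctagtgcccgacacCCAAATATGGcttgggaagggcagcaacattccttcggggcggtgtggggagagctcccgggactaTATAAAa
Myh4, fast myosin heavy chain, chr11:67237562-67237811, plus strand: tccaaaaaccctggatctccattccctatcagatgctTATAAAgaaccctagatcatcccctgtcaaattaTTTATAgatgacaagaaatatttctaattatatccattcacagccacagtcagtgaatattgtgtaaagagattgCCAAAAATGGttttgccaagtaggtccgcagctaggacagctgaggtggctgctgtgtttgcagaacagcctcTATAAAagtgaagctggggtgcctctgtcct
Tnnt1, slow troponin T, chr7:4515976-4516225, minus strand: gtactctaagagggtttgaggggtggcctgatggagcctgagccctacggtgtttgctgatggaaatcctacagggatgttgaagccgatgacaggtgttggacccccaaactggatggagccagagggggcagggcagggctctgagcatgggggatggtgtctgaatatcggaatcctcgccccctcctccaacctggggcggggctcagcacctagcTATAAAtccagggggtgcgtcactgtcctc
Myl3, slow and ventricular essential light chain, chr9:110763428-110763677, plus strand: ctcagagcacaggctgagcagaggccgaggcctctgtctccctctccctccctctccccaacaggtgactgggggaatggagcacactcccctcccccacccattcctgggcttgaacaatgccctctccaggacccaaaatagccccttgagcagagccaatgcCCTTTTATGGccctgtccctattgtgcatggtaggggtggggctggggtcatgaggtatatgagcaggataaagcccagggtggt
Promoters were listed for 34 of the 43 members, among 27025 genes with 250 upstream bases; the first listed start of each gene was searched. TATAAA lay in 5 of the 34 and in 3504 of all promoters. A CArG box lay in 4 of the 34 (Acta1, Ldb3, Myh4 and Myl3) and in 1.4% of all. The MEF2 motif lay in Myoz2 and Ttn and in 0.518% of all promoters, and an E-box, CANNTG, the motif of myogenic factors, in 29 of the 34 and in 17848 of all. Matches of different motifs overlapped in 0 of the 34. TATAAA stood in 3 of 10 fast and 1 of 8 slow promoters, and a CArG box in 1 of 10 and 1 of 8. A match is a description of the sequence, and no match says only that the letters are not in this window.

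Muscle genes were detected in the bone shaft of all 4 groups, and the markers Acta1, Ckm and Myh4 were called present on 20 of 20 arrays. Of the 43 members, 41 were called present on 20 of 20 arrays. The other 2 were Tnni1, slow troponin I, present on 16 arrays, and Sln, sarcolipin, an inhibitor of the calcium pump, present on 13. This count takes the brightest probe set of each gene, which favours present calls. A dimmer tested probe set of Atp2a2 was called present on 5 arrays. The like share over all genes was not computed, so the count does not set the members apart from other genes. In bulk RNA of a bone, fewer muscle cells and less RNA per muscle cell cannot be told apart.

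Acta1, the actin of the skeletal muscle thin filament, read 66087, 56604, 48045, 43179.8 and 38660.1 in the normal males of series 1 to 5, and 48905, 54036, 44474, 47088 and 56283 in the Hyp males. In the same series the normal females read 51678, 57727, 42036, 36700.3 and 45003, and the Hyp females 58216, 74784, 44697, 52438 and 50093. All groups overlapped, and the highest array of the 20 was the Hyp female of series 2. Hyp over normal was 1.1-fold over both sexes (95% CI 0.966 to 1.25, limma adjusted p = 0.402), with a log2 difference of 0.14 ± 0.09 (SE).

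Ckm, the creatine kinase that buffers ATP in muscle, followed Acta1 from array to array. Its signals were 56829.6, 50444, 38303, 33652 and 31090.0 in normal males and 33209, 47293, 32191, 31038 and 38332 in Hyp males. Those of normal females were 41669.8, 47454, 34095, 30919.9 and 27342, and those of Hyp females 48419, 58041, 34379.7, 44274 and 39325. The 4 groups overlapped. In males Hyp was lower in 4 of 5 pairs and in females higher in 5 of 5, and the log2 differences were -0.19 ± 0.13 (limma adjusted p = 0.46) and 0.31 ± 0.13 (adjusted p = 0.426).

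Myh4, the myosin heavy chain of the fastest (IIb) fibres, gave 60469, 48884, 44223, 39179 and 36743 in normal males and 38134, 50397, 39324, 36677 and 34238 in Hyp males. Normal females gave 45529, 50689.9, 36001, 32985 and 32824, and Hyp females 48054, 56571, 36971, 49950.3 and 42228. Here too the groups overlapped. The log2 difference of Hyp from normal was -0.20 ± 0.12 in males (limma adjusted p = 0.382) and 0.25 ± 0.12 in females (adjusted p = 0.49).

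These 3 signals lie near the top of the scale, and whether they are compressed there was not tested. A dimmer Ckm probe set spanned 1.87 on the log2 scale over the 20 arrays, against 1.09 for the bright one. A dimmer Myh4 probe set spanned 3.02 against 0.88. The dimmer sets gave log2 differences in males of -0.62 for Ckm (limma adjusted p = 0.123) and -1.12 for Myh4 (adjusted p = 0.113), so the size of a fold depended on the probe set, and neither passed. Of 15 members with more than 1 probe set tested, 9 had probe sets that differed in sign over both sexes.

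With Myh4, Myl1 and Tnnt3 had the highest mean signals of the fast list. Myl1, the fast essential light chain, ran from 35919 to 57722 in normal males (median 39332), from 38435 to 48923 in Hyp males (45103), from 33070.2 to 51735 in normal females (43121) and from 38295 to 66330.2 in Hyp females (44188). Tnnt3, fast troponin T, ran from 26645 to 60166 (median 42032), from 32449 to 49811 (36439), from 30062 to 51278 (33526) and from 34606 to 61955 (46674) in the same order of groups. Neither passed in Hyp against normal: the log2 differences over both sexes were 0.09 ± 0.08 for Myl1 (limma adjusted p = 0.539) and 0.09 ± 0.10 for Tnnt3 (adjusted p = 0.663).

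Genes of calcium release and energy supply gave the same overlap. Ryr1, the ryanodine receptor, ran from 3604 to 16094 in normal males (median 10728), 5219 to 12888 in Hyp males (6229.7), 7328 to 16467 in normal females (8920) and 7855 to 16415 in Hyp females (11491). Cacna1s, the voltage sensor that opens it, ran from 755 to 2691 (median 2222), 818 to 2337 (1041), 1473 to 3152 (1498) and 1317 to 2976 (2097). In both the lowest of 20 arrays was the normal male of series 5, and the highest was the normal female of series 1. Trdn, triadin, which anchors calsequestrin to the receptor, ran from 8026 in that same normal male to 32422 in the Hyp female of series 2. Mb ran from 5546 to 42607 between those 2 arrays, Eno3, the muscle enolase of glycolysis, from 13619 to 36292, and Neb, the thin filament ruler nebulin, from 6441 to 18864. In males Hyp minus normal was -0.33 ± 0.26 for Ryr1, -0.57 ± 0.25 for Cacna1s and -0.39 ± 0.17 for Eno3 on the log2 scale (limma adjusted p = 0.527, 0.249 and 0.24). In females the same 3 differed by 0.19 ± 0.26, 0.12 ± 0.25 and 0.17 ± 0.17 (limma adjusted p = 0.866, 0.921 and 0.784).

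Slow fibre genes had a wide spread among arrays of one group. Tnnc1, the calcium-binding troponin of slow fibres, read 9086, 1415, 12096, 3882 and 1576 in the normal males of series 1 to 5 and 1196, 1957, 1237, 4829 and 10222 in the Hyp males. In females it read 11496, 3897, 12369, 9893 and 6171 in normal and 6108, 14009, 7254, 9032 and 5518 in Hyp arrays. Both male groups held low and high arrays, with an overall male range of 1196 to 12096, whereas the lowest female array stood at 3897.

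Myl2, the slow regulatory light chain, ran from 1469 to 19770.1 in normal males (median 5772), from 1956 to 13720.0 in Hyp males (3618), from 4404 to 18118 in normal females (11338) and from 7958 to 17432 in Hyp females (8396). Myl3 ran from 903 to 13351 (median 2402), from 2009 to 6454 (2315), from 2567 to 12831 (7649) and from 5593 to 8583 (6608) in that order. All 4 ranges of each gene overlapped. Over both sexes Hyp differed from normal by -0.26 ± 0.47 for Myl2 (limma adjusted p = 0.804), -0.13 ± 0.36 for Myl3 (adjusted p = 0.888) and -0.28 ± 0.46 for Tnnc1 (adjusted p = 0.78), on the log2 scale.

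The spread left after group and series, as a log2 SD, ran from 0.16 to 0.30 for 13 of the 14 fast genes. Myh2, the myosin of IIa fibres, had 0.92, and the 8 slow genes had 0.60 to 1.38. Highest over lowest signal among 20 arrays was 1.84 for Myh4 and 2.04 for Acta1 but 11.7 for Myh7, the slow myosin heavy chain, and 29.2 for Tnni1. The dimmer Myh4 probe set spanned 1251 to 10249, closer to the slow genes, so for Myh4 the contrast depended on the probe set. Among less bright members, Mybpc2 and Myoz1, with mean log2 signals of 13.85 and 13.21, had SDs of 0.29 and 0.30. Myl2 at 12.83 had 1.19. The part of brightness in this contrast was not tested. Genotype differences of slow genes were less precise, with SEs of 0.34 to 0.77 within a sex against 0.11 to 0.52 for fast genes.

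Averaged over the list, the fast genes ran from 14.17 in the normal male of series 5 to 15.43 in the normal male of series 1 and the Hyp female of series 2, in log2 units. The slow genes ran from 9.67 in that same normal male of series 5 to 13.01 in the normal male of series 3. The 2 lists were not ordered alike: the normal male of series 2 had 15.14 for fast and 10.54 for slow genes, and the normal female of series 3 had 14.56 and 12.81.

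**Figure D1:**
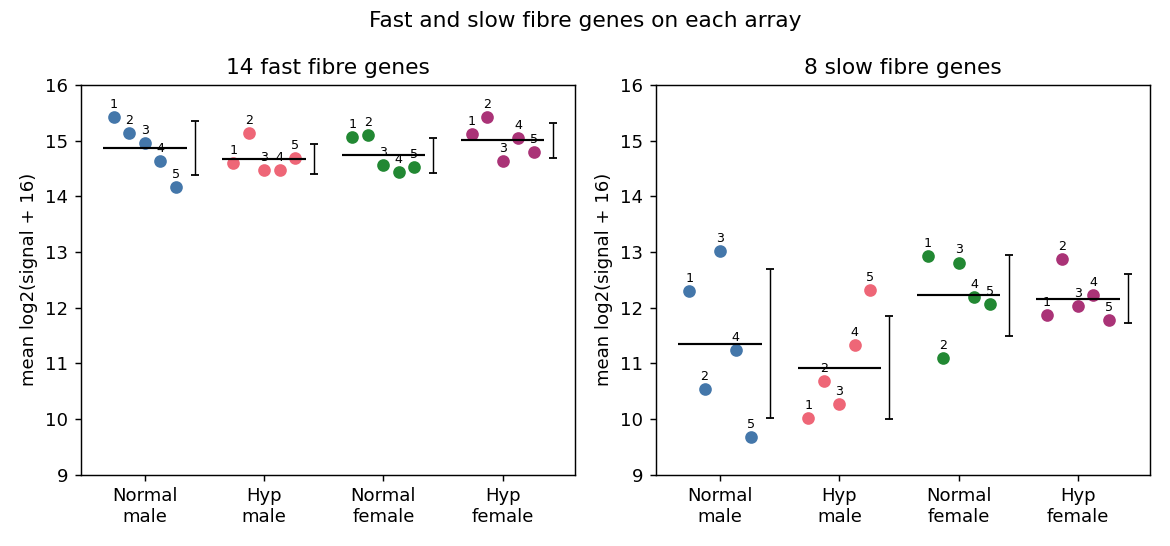
Mean log2(signal + 16) of the 14 fast fibre genes (left) and the 8 slow fibre genes (right) on each of the 20 arrays. Points are arrays labelled by series, horizontal lines are group means and the bars beside them are 1 SD (n = 5); fast means span 14.17 to 15.43 and slow means 9.67 to 13.01.

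Members, each read by its brightest probe set, varied together across arrays. Acta1 was set against 5 members over 20 arrays, and p-values (2-sided permutation, 100000 resamples) were adjusted over the 5. These permutations exchange arrays over all series, although arrays of a series share litters and handling. The relations were therefore repeated, as an addition made after the data were seen, with series means removed and arrays exchanged only within a series. Pearson's r was 0.89 with Ckm and Spearman's rho 0.89, with permutation p = 1e-05 for each, the smallest that could be reached, and adjusted p = 5e-05. With Myh4 r was 0.82 (permutation p = 2e-05, adjusted 5e-05) and rho 0.77 (p = 0.00015, adjusted 0.000375). Without the 2 arrays farthest from the Acta1 median, r was 0.87 for Ckm and 0.76 for Myh4. Within series 1 and 2 (8 arrays) r was 0.88 and 0.85, and within series 3 to 5 (12 arrays) 0.67 and 0.45. With series means removed r was 0.79 for Ckm (permutation within series, adjusted p = 0.00345) and 0.67 for Myh4 (adjusted p = 0.0117). Over the pooled arrays the dimmer probe sets had r = 0.70 with Acta1 for Ckm and 0.02 for Myh4. For Myh4 the relation thus depended on the probe set.

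With series means removed, Myh7 and Atp2a2 followed Acta1, which they did not over the pooled arrays. With Myh7 r was 0.21 (permutation p = 0.386, adjusted 0.386) and rho 0.14 (p = 0.569, adjusted 0.569), and r was 0.13 without the 2 farthest arrays. With the brightest probe set of Atp2a2, the calcium pump of slow fibres and heart, r was 0.26 (permutation p = 0.271, adjusted 0.339) and rho 0.17 (p = 0.478, adjusted 0.569). Here r fell to 0.15 without the 2 farthest arrays. Within series 1 and 2 both were higher, at 0.69 and 0.74, and within series 3 to 5 they were 0.30 and 0.34. With series means removed r was 0.54 for Myh7 and 0.59 for Atp2a2 (permutation within series, adjusted p = 0.0235 and 0.0191). Without the 2 arrays then farthest from the Acta1 median these were 0.39 and 0.48.

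All members were then set against Acta1 and against Myh7, 84 relations chosen after the data were seen and adjusted together. Of the 14 fast genes, 13 correlated with Acta1 (r from 0.67 in Mybpc2 to 0.98 in Tnnc2, fast troponin C; permutation, adjusted p at most 0.00271); Myh2 had r = 0.46 (adjusted permutation p = 0.0695). Of the 8 slow genes 0 did, with r from 0.17 to 0.44. The 7 other slow genes all correlated with Myh7, from r = 0.73 in Casq2, the slow and cardiac calsequestrin, to 0.99 in Tnni1 (adjusted permutation p at most 0.000191). Among the fast genes Myh2 alone reached adjusted p under 0.05 with Myh7 (r = 0.63, rho = 0.72, adjusted permutation p = 0.00205 and 0.00158). All of these arrays share one scaling, and r with Acta1 within series 3 to 5 went as low as 0.07 among fast genes. Each gene stands here by its brightest probe set. The other probe sets of fast genes had r with Acta1 from 0.02 (Myh4) to 0.92 (Myh1).

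With series means removed, the division between the lists was less sharp. With Acta1, 12 of 14 fast genes passed by r (0.39 to 0.96 over the list, permutation within series, adjusted over the 84). Actn3 and Mybpc2 did not, with adjusted p = 0.0852 and 0.114. Of 8 slow genes 6 passed by r (0.48 to 0.58 over the list). By rho, Myh7, Myl2, Tnnt1 and Myoz2 of these passed (adjusted permutation p from 0.0457 to 0.0492). Tnnc1 and Tnni1 did not (0.072 and 0.0719), nor did the fast gene Myoz1 (0.0999). Without the 2 arrays farthest from the Acta1 median, r with Acta1 was 0.35 to 0.46 in slow and 0.50 to 0.95 in fast genes. With Myh7, 9 of 14 fast genes passed (r from 0.28 to 0.74), beside all 7 other slow genes (r from 0.78 in Casq2 to 0.99 in Tnnc1, adjusted p at most 0.00198). Fast and slow genes thus varied together in part within series. The relation of slow genes to Acta1 depended on the measure used and was weaker without 2 arrays. Slow genes had higher r with Myh7 than with Acta1 within series. The difference between those values of r was not tested.

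Some genes correlated with both over the pooled arrays. Actn2, the Z-disc actinin, had r = 0.67 with Acta1 and 0.62 with Myh7 (adjusted permutation p = 0.00381 and 0.00575) and rho = 0.69 and 0.55 (0.00311 and 0.0251). Mybpc1, the slow-type myosin-binding protein C, had r = 0.71 and 0.62 (0.00171 and 0.00435) and rho = 0.74 and 0.54 (0.00095 and 0.0309). It is listed here among the structural genes of both fibre types. Mb, myoglobin, the oxygen store, had r = 0.73 and 0.51 (0.00115 and 0.0299) and rho = 0.74 and 0.48, the last not past the threshold (adjusted permutation p = 0.0547). Sln had r = 0.06 with Acta1 and 0.70 with Myh7 (adjusted permutation p = 0.793 and 0.00174), with rho = -0.03 and 0.68 (0.928 and 0.00311). With group means removed, r with Myh7 was 0.52 for Actn2, 0.55 for Mybpc1, 0.51 for Mb and 0.50 for Sln, without a test.

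**Figure D2:**
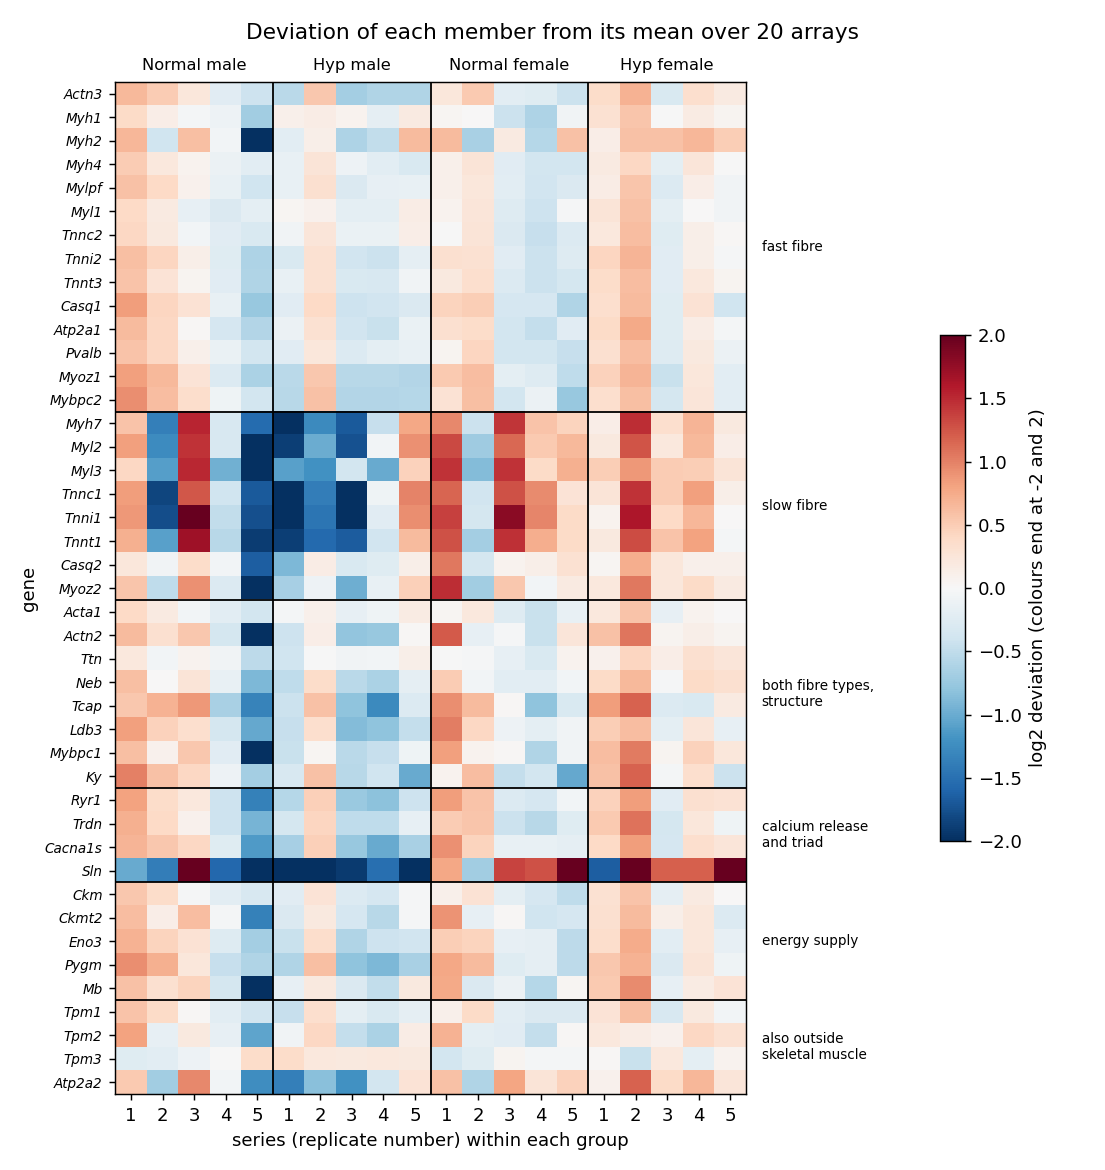
Deviation of log2(signal + 16) of each of the 43 members from its mean over 20 arrays, with genes in rows by list and arrays in columns by group and series (red higher, blue lower; colours end at -2 and 2). Slow genes have larger deviations than most fast genes, for example on the normal males of series 3 and 5.

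Probe sets of Tpm3 and Atp2a2, genes with forms in slow muscle and in other cells, went separate ways. Tpm3 codes for a tropomyosin, and one of its dimmer probe sets read 3419, 612, 6821, 1591 and 617 in normal males and 285, 609, 337, 990.0 and 3236 in Hyp males. In females it read 4304, 1123, 7228, 2860.4 and 2432 in normal and 2317, 3852, 2726, 2998 and 2264 in Hyp arrays. The arrays high in slow genes were high here too. The brightest Tpm3 probe set read 6066, 6185, 6681, 7135 and 9282 in normal males and 9339, 8342, 8242, 8293 and 8232 in Hyp males. In normal females it read 5593, 6106, 7505, 6993 and 7044, and in Hyp females 7309.5, 5258, 8344, 6320.0 and 7528.

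Over 11 relations of these probe sets with Myh7, chosen after the data were seen, the probe set just given and one other of Tpm3 both had r = 0.98 (adjusted permutation p = 2.75e-05), with rho = 0.97 and 0.96. The other 3 Tpm3 probe sets, the brightest first, had r = -0.57, -0.50 and -0.62 (adjusted permutation p = 0.017, 0.0331 and 0.00772). Of 6 Atp2a2 probe sets, the brightest and one other had r = 0.98 (adjusted permutation p = 2.75e-05). Another, whose signal stayed between 3573 and 4998, had r = 0.07 (adjusted permutation p = 0.786). A further one had r = 0.54 (adjusted permutation p = 0.0196) and rho = 0.42 (0.09). The remaining ones had r = 0.13 and -0.06 (adjusted permutation p = 0.72 and 0.786). With series means removed the Tpm3 values were 0.98 and 0.99 for the first pair and -0.78, -0.67 and -0.63 for the other 3 (permutation within series, adjusted p at most 0.00735). With group means removed instead, the first pair had 0.98 and 0.98 and the other 3 had -0.37, -0.28 and -0.40, without a test. Both kinds of permutation exchange arrays over sex and genotype, so differences between groups can enter these p-values. Which transcripts each probe set reads was not looked up.

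The bright Tpm3 probe set also ran against Acta1, with r = -0.57 (permutation p = 0.00976, adjusted over 5 relations 0.0163) and rho = -0.50 (p = 0.0281, adjusted 0.0468). Without the 2 farthest arrays r was -0.52; it was -0.64 in series 1 and 2 and -0.18 in series 3 to 5. With series means removed r was -0.46 and did not pass (permutation within series, adjusted p = 0.0771). With group means removed instead r was -0.80, without a test.

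**Figure D3:**
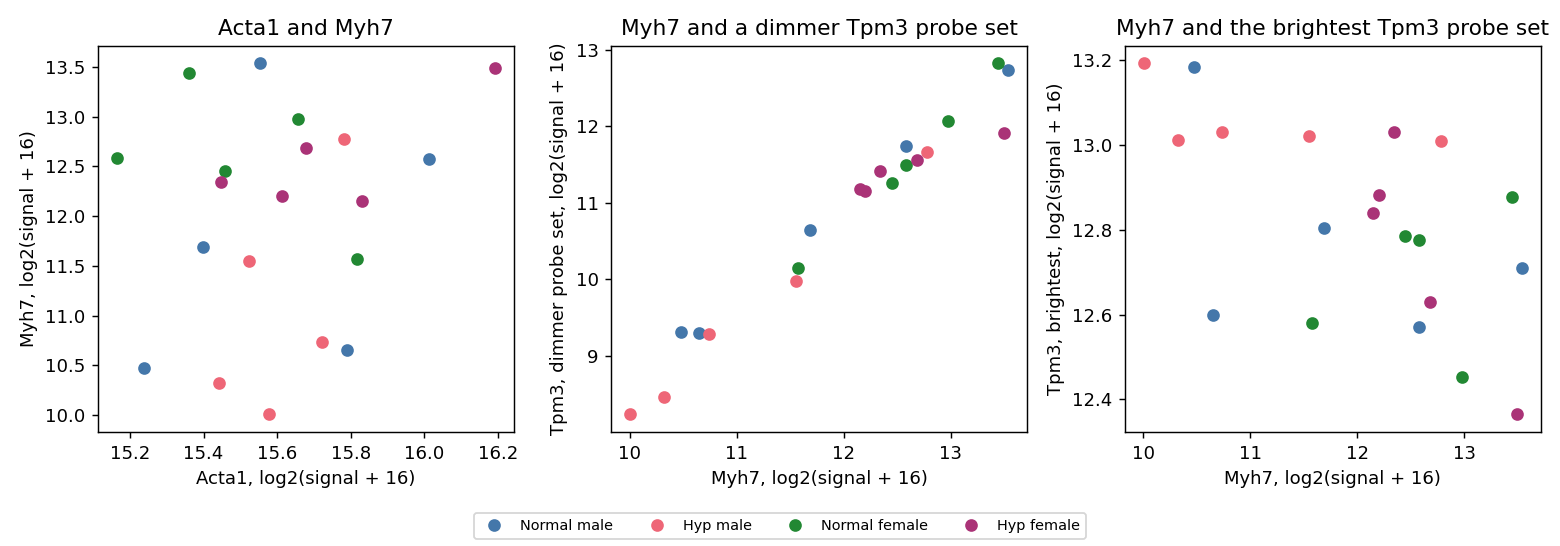
Log2(signal + 16) of Acta1 against Myh7 (left), and of Myh7 against a dimmer Tpm3 probe set (middle) and the brightest one (right), with 1 point per array coloured by group (n = 20 arrays). Over all arrays r is 0.21, 0.98 and -0.57 from left to right.

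The 5 series of littermates differed in the fast set. Over all probe sets 7.43% passed the F test between series (limma adjusted p under 0.05), and of the 43 members 16 did (37.2%). They were 10 of the 14 fast genes, 0 of the 8 slow genes, Tcap and Ky of the structural genes, Trdn of the calcium genes, and Ckm, Eno3 and Pygm of the energy genes. This count rests on a few arrays and on the scaling. It was 1 without series 2, 8 without series 4, 7 with quantile normalization and 6 with no filter on present calls. Over all probe sets, 795, 1129, 1870 and 1138 passed in these settings in turn, against 2016 in the main fit. More probe sets were tested with no filter. Leaving out 1 array gave 6 to 20, lowest without the Hyp female of series 2 and highest without the Hyp male of series 1.

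Series 1 and 2 were high in fast genes, with list means over 4 arrays of 15.05 ± 0.34 and 15.20 ± 0.16 (SD), against 14.66 ± 0.21, 14.64 ± 0.28 and 14.54 ± 0.27 in series 3, 4 and 5. Slow genes gave 11.77 ± 1.25, 11.30 ± 1.08, 12.03 ± 1.25, 11.75 ± 0.54 and 11.46 ± 1.21. The slow series means spanned less than the SD within series 1, 2, 3 and 5. Among the fast genes that passed were Atp2a1, the fast calcium pump (limma adjusted p = 0.0124), Pvalb, the calcium buffer parvalbumin (0.0213), and Casq1, the fast calsequestrin (0.0161).

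Ky, a Z-disc-associated protein whose loss causes kyphoscoliosis in mice, had the smallest p of the members between series (limma adjusted p = 0.000464). Its signals in series 1 to 5 were 1592, 1188, 1048, 726 and 481 in normal males, and 626, 1182, 529.7, 592 and 379.9 in Hyp males. Normal females gave 825, 1208, 559, 604 and 375, and Hyp females 1189, 1794, 759.8, 989.6 and 578. Series 5 was lowest in each group, and the group ranges overlapped. Series took 68.6% of its variance over arrays and left 9.85% within.

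Over the fast list the median share of variance between series was 60.0%, with 24.1% left within series and group. Over the slow list the corresponding medians were 7.27% and 60.9%. Ttn, the titin spring of the sarcomere, was low in series variance (3.9%), and Sln had the highest share between groups, at 51.7%. Sln was called present on 13 of 20 arrays, so its share takes in values near background.

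**Figure D4:**
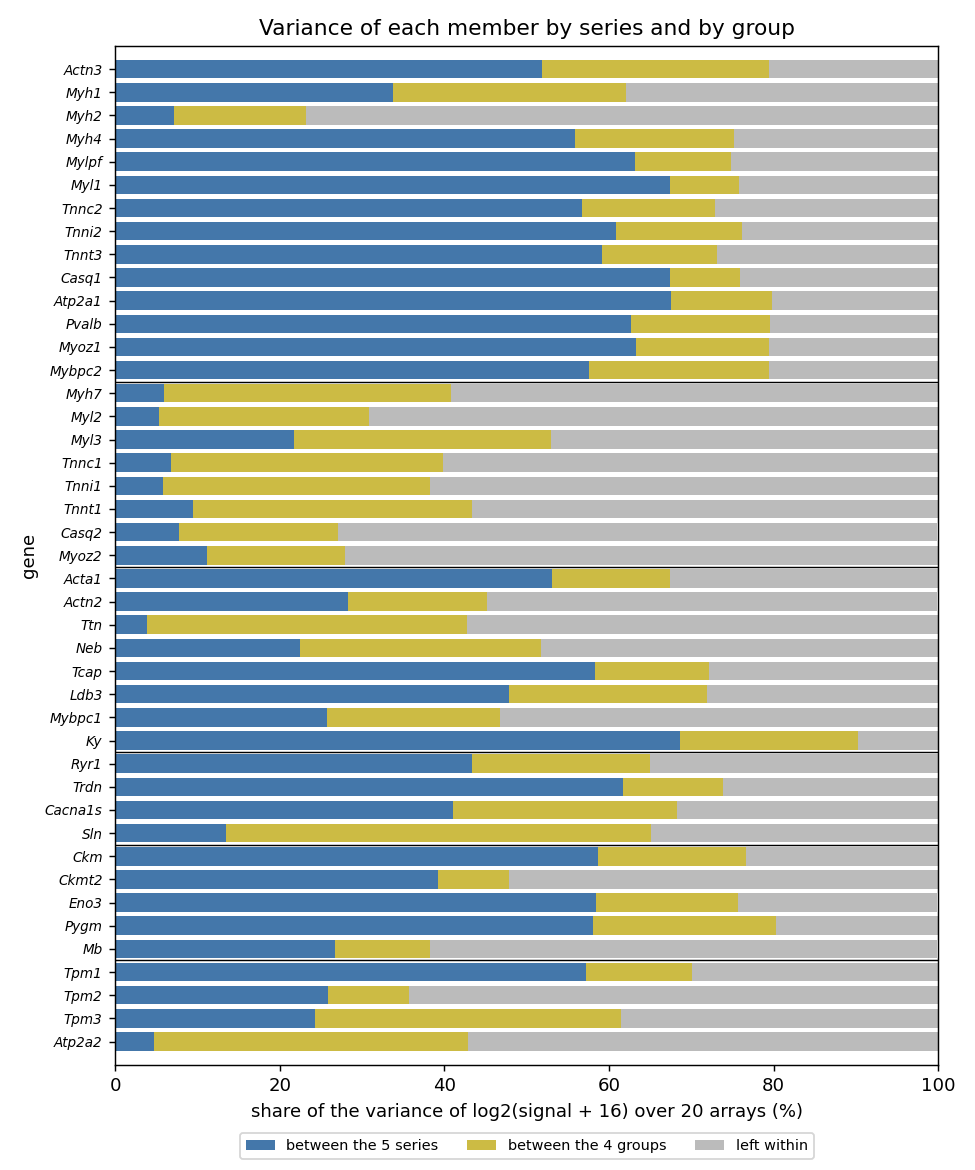
Share of the variance of log2(signal + 16) over 20 arrays, in percent, that lies between the 5 series (blue), between the 4 groups (yellow) and within (grey), for each of the 43 members in the order of the lists. The blue share is 60.0% in the median of the fast genes and 7.27% in that of the slow genes.

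Hyp against normal gave no call in these genes. Over both sexes 0 of 43 members passed, where 2.38% of all probe sets did (limma adjusted p under 0.05), and 1 had an unadjusted p under 0.05, where 20.2% of all probe sets did. That one was Myh1, the myosin of IIx fibres, at 0.28 ± 0.11 on the log2 scale (limma adjusted p = 0.152, higher in 8 of 10 pairs). The median log2 difference was 0.00, beside 0.011 over all probe sets, with 23 members above 0 and 20 below. The largest differences were -0.62 in Tnni1, -0.46 in Sln (called present on 4 of 10 male arrays), -0.40 in Tnnt1, 0.38 in Myh2 and -0.37 in Myh7, each with an adjusted p of 0.566 or more. A linear model without moderation on the untransformed signals called 0 members as well.

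In males, hemizygous Hyp against normal called 0 of 43 members, beside 0.0995% of all probe sets in either direction and 0.0442% called lower. Values were mostly below 0 (35 of 43, median -0.24; 0.011 over all probe sets), and 9 had an unadjusted p under 0.05, 8 of them lower and Tpm3 higher. The share of all probe sets at that level was 17.9%. Ky had the smallest adjusted p at 0.0984 (log2 difference -0.58 ± 0.16), then Mybpc2, the fast myosin-binding protein C, at 0.104 (-0.63 ± 0.18), Actn3, the fast-fibre actinin, at 0.124 (-0.53 ± 0.17), and Pygm, muscle glycogen phosphorylase, at 0.13 (-0.63 ± 0.20). Ky, Mybpc2 and Pygm were lower in all 5 male pairs. The largest differences in males were in Tnni1 (-0.95 ± 0.77), Tnnt1 (-0.74 ± 0.61) and Myh7 (-0.71 ± 0.59), none past the threshold. Sln had a fitted value of -1.37 ± 1.00 but was called present on 3 of 5 normal and 1 of 5 Hyp arrays, so it has no rank here.

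This male median moved with single series. It was -0.57 without series 5 and -0.04 without series 1. In the male pairs of series 1 and 2 it was -0.53, with 1 of 43 members above 0, and in those of series 3 to 5 it was -0.05, with 17 above 0. The slow list in males gave pair differences of -2.27, 0.14, -2.74, 0.10 and 2.65 in series 1 to 5, a mean of -0.43 ± 2.17 (SD, n = 5 pairs). Direction thus changed from pair to pair in slow genes.

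In females, heterozygous Hyp against normal also called 0 of 43, beside 0.00368% of all probe sets. Here 36 members lay above 0 with a median of 0.21 (0.017 over all probe sets; 0.11 with quantile normalization), and 7 had an unadjusted p under 0.05, all higher, where 10.1% of all probe sets had such a p. The largest were Ky (0.56 ± 0.16, limma adjusted p = 0.239), Myh2 (0.45 ± 0.52), Sln (0.45 ± 1.00), Mybpc1 (0.43 ± 0.36) and Myh1 (0.43 ± 0.15, adjusted p = 0.333). All 14 fast genes were above 0, with a median of 0.27, and their list mean was higher in 5 of 5 female pairs by 0.27 ± 0.23 (SD). With quantile normalization the fast median was 0.09. Slow genes had a median of -0.05, and their pair differences were -1.06, 1.78, -0.78, 0.05 and -0.30.

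Fast genes in males had a median of -0.19, with 11 of 14 below 0, and the list mean was higher in 1 of 5 pairs; the median ran from -0.35 to -0.07 when 1 array or series was left out. The contrast between the sexes, the male minus the female Hyp effect, was below 0 in 40 of 43 members with a median of -0.50 (0.012 over all probe sets). Of the 43, 0 passed, beside 0.00368% of all probe sets, and 12 had an unadjusted p under 0.05, where 6.62% of all did. The largest beside Sln (-1.82 ± 1.42, called present on 4 of 10 male arrays) were Ky (-1.14 ± 0.22, limma adjusted p = 0.653), Mybpc2 (-0.83 ± 0.25, adjusted p = 0.751), Actn3 (-0.82 ± 0.23, 0.751) and Atp2a2 (-0.81 ± 0.58, 0.823). The all-member median ran from -0.80 to -0.33 when 1 array or series was left out and was -0.37 with quantile normalization. Tendon genes leaned the same way, as given below. The members share arrays and vary together, so these counts are not counts of independent genes.

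**Figure D5:**
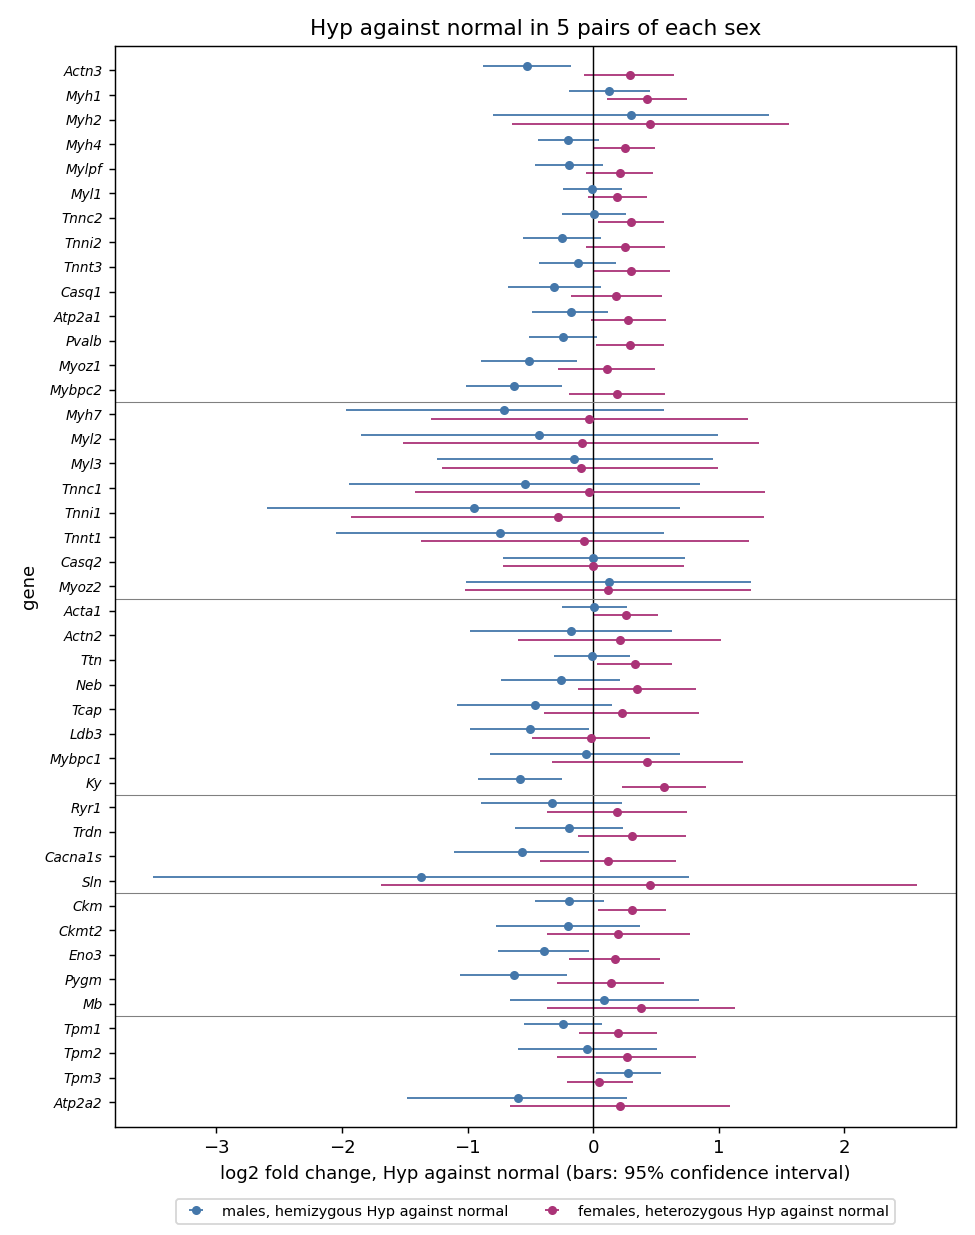
Log2 fold change of Hyp against normal for each of the 43 members in males (blue) and females (purple), with 95% confidence intervals from the fit over 20 arrays (5 pairs per sex). Male values lie below 0 for 35 members and female values above 0 for 36, and the slow genes and Sln have the widest intervals.

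The actin 3′ to 5′ ratio, higher in Hyp, moved with genotype. With it as a covariate 0 members were called in each comparison. Over both sexes, calls among all probe sets fell from 647 to 1 with this covariate. The median SE over all probe sets rose from 0.11 to 0.20. The count of 0 members over both sexes therefore cannot tell the members from other genes in this setting. Acta1 in males turned from 0.01 to -0.12 with the covariate. Quantile normalization turned the values over both sexes of Acta1, Ckm, Myh4, Myl1 and Tnnt3 below 0, from -0.03 to -0.14. Directions of such sizes are therefore not stable to the scaling.

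Slow genes read higher in females than in males in most pairs, without passing the test. Over both genotypes 0 of 43 members passed, beside 0.133% of all probe sets (0.0663% called higher and 0.0663% called lower), and 14 had an unadjusted p under 0.05 (13 higher), where 13.9% of all probe sets did. All 8 slow genes lay above 0, with a median log2 difference of 1.15 (0.000 over all probe sets; 1.16 with quantile normalization), and limma adjusted p from 0.194 to 0.434. Tnni1 differed by 1.38 ± 0.55, Tnnc1 by 1.28 ± 0.46, Tnnt1 by 1.19 ± 0.43 and Myh7 by 1.16 ± 0.42. Tnnc1 was higher in the female of 9 of 10 series and genotype pairs, and the other three in 8 of 10. The slow median stayed between 0.91 and 1.41 when 1 array or series was left out. The 14 fast genes had a median of 0.05.

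Sln had the largest fitted difference between the sexes. It read 164, 124, 1424, 107 and 41.6 in normal males and 5.9, 73.9, 80.5, 112 and 74.8 in Hyp males, where it was called present on 3 and 1 of 5 arrays. Normal females read 603, 208, 916, 866 and 6838 and Hyp females 99.9, 5488, 819, 814 and 8279.5, called present on 5 and 4 of 5. Females of series 5 and the Hyp female of series 2 were far above the rest. The female array was higher in 9 of 10 pairs, and the test did not pass (limma adjusted p = 0.1, from 0.0501 to 0.367 over the alternatives). With 4 of 10 male arrays called present the male level is not well above background. Sln met the filter of 5 present calls only with its female arrays, so the filter itself favoured this contrast. Nothing is concluded from it. The fitted log2 difference of 3.22 ± 0.71, which is not a measure of fold here, ran from 2.35 without series 5 to 3.72 without series 3.

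Other genes of muscle were measured beside the list. Of 40 further skeletal muscle genes, 36 were measured and 0 passed in Hyp against normal (beside 2.38% of all probe sets over both sexes, 0.0995% in males and 0.00368% in females), with a median of -0.12 over both sexes, -0.42 in males (36 of 36 below 0) and 0.19 in females. The largest change over both sexes was in Ampd1, the AMP deaminase of muscle (-0.47 ± 0.15, limma adjusted p = 0.0925). Of 11 measured myogenic and satellite cell genes, 1 passed. Cdh15, M-cadherin, an adhesion protein of satellite cells and myoblasts, fell in Hyp.

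Cdh15 read 995, 1212, 486, 821 and 1007 in normal males and 584, 432, 581, 567 and 490.2 in Hyp males. In females it read 1204, 1133, 885, 1086 and 1246 in normal and 646, 524, 699.7, 639.7 and 601 in Hyp arrays. The female groups did not overlap, and in males only the normal array of series 3 lay within the Hyp range. The log2 difference over both sexes was -0.76 ± 0.13 (limma adjusted p = 0.0102), lower in 9 of 10 pairs, where 1.3% of all probe sets were called lower. The call was lost without series 1, 2, 4 or 5 (adjusted p = 0.0588, 0.0816, 0.0817 and 0.0623) and when the actin ratio was added to the model (-0.94, adjusted p = 0.18). Over all probe sets, calls also fell, from 647 to 147, 30, 20 and 129 without those series and to 1 with the ratio.

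Markers of other tissues were read over the same arrays. Of 8 cardiac genes 5 were called present on 0 arrays, the atrial and ventricular peptides Nppa and Nppb among them, and 2 were measured: Tnnt2 and Actc1, both also used in young skeletal muscle. Actc1 alone, from 3145 to 35106, carried nearly the whole cardiac sum, with Tnnt2 at 42.5 to 398. Summed cardiac signal ran from 20794 to 35591 in normal males, 10683 to 27516 in Hyp males, 3711 to 22397 in normal females and 6945 to 15805 in Hyp females. The largest changes in Hyp over both sexes were Actc1 (-0.44 ± 0.24, limma adjusted p = 0.31), Myh11 of smooth muscle (0.61 ± 0.21, 0.114), Mkx of tendon (-0.36 ± 0.09, 0.058), S100b of Schwann cells (0.44 ± 0.12, 0.0553) and Cidec of adipocytes (-0.45 ± 0.31, 0.44). None of the 23 measured genes of these 5 lists passed. Tendon genes had the same opposite signs in the sexes as the muscle genes: 6 of 7 lay below 0 in males (median -0.29, lowest limma adjusted p = 0.0743, Mkx), 5 of 7 above 0 in females (median 0.12), and the male minus female difference was below 0 in 7 of 7 (median -0.47). Its median was -0.31 in the 2 cardiac genes, both below 0, and -0.05 in smooth muscle, -0.03 in adipocyte and 0.21 in nerve genes. Summed tendon signal was 20463 to 39523 in normal males, 22256 to 30298 in Hyp males, 23504 to 32495 in normal females and 25538 to 35967 in Hyp females. For smooth muscle the ranges were 9710.0 to 14683, 8108 to 18738, 7833 to 12704 and 9439.7 to 15768, for nerve 3577 to 4664, 3610.2 to 4391, 3482 to 4089 and 3512 to 4348, and for adipocytes 9134 to 23631, 17034 to 32677, 12284 to 20543 and 17725 to 22375. The ranges overlapped except in the cardiac list, where normal males lay above Hyp females, and the part of these tissues in the muscle values was not tested.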

How the data were processed

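Total RNA was hybridised to 20 Affymetrix arrays, 5 in each of 4 groups. Signal intensities were deposited by the authors as linear values per probe set, made with GCOS per the submitters' processing notes, with version and build not given in the sources used here; detection calls stand beside them per the file headers. The mean trimmed by 2% was 500.0 on each array. A score, the F statistic of each term of the authors' analysis of variance, was also deposited; recomputing the genotype, sex and interaction F from the signals gave a largest relative difference of 4.47e-09.

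Probe sets were named from the platform table, and 64 control probe sets were left out. Values were log2(signal + 16), tested with limma 3.58.1 (R 4.3.3) in 1 model of group and series as a block, with Benjamini-Hochberg adjustment over 27141 probe sets and a threshold of 0.05. A fold change on this scale understates changes of dim genes. Arrays give no depth; their number limits the precision. Arrays of one series were matched littermates processed in parallel, per the labels. Of the 30 array pairs with one series number, 24 had correlated deviations over 0.1 (median 0.21). Of the 120 pairs with other numbers 33 did (median -0.07). Group means were removed first, so a positive median in the one kind of pair pushes the other down. The block, taken from the labels, is in the main fit.

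Members, lists and tests were chosen with earlier results of these data known. Named in full were Acta1, Ckm, Myh4, members past the threshold in a contrast, and the 3 brightest fast and slow genes; the 5 largest changes per contrast and per further list the largest change or any gene past the threshold were named. Other genes given with values, Sln, Ky, Tpm3 and Ryr1 among them, were singled out after their values were seen. Alternatives were other pseudocounts, filters, scaling, blocks, probe sets, an RNA quality covariate, a model on linear signals, leaving out series and arrays and, for correlations, permutation within series. The fit was tested on simulated data. Correlations and exact tests used scipy 1.17.1. Of the further lists, 8 symbols had no probe set of their own and were not analysed here.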

Additional observations from a re-analysis of the deposited data

Results flagged for a closer look

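The sarcolipin gene Sln had a lowest array apart from the rest in Hyp males: the array of series 1, called absent, lay 0.80 of the group's range below the next. The bright Tpm3 probe set had a highest array apart in the same group and series, at 0.89 of the range. Of 52 groups of 5 arrays checked, 2 passed Dixon's critical value for 5 arrays, and chance flags about 1 group in 20.

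Ky was lower in Hyp in 5 of 5 male pairs and higher in 5 of 5 female pairs. The male minus female log2 difference was -1.14 (limma adjusted p = 0.653). Mybpc2 showed the same opposite pairs, with a difference of -0.83 (limma adjusted p = 0.751). The test of these differences did not pass, and the cause was not tested.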

How the results depend on the processing

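The count of 0 members called held in all 5 contrasts under every alternative run, among them no replicate block and a random replicate block, which changed no call of a member. The count of members that differed between series moved most, from 16 (10 fast). It was 6 (4 fast) with no filter on calls and 7 (3 fast) with quantile normalization. When 1 array or series was left out it was 1 to 20 (0 to 12 fast). Over all probe sets the count went from 2016 to 1138 with no filter, 1870 with quantile normalization and 795 without series 2. The cause was not tested. Cdh15 over both sexes kept its direction but not its call with the actin ratio as a covariate (-0.94), and ran from -0.94 to -0.63 when arrays or series were left out. Quantile normalization gave log2 differences of -0.03 (Acta1), -0.10 (Ckm), -0.14 (Myh4), -0.06 (Myl1) and -0.06 (Tnnt3) over both sexes, -0.11 for Acta1 in males, and -0.03 (Myh4) and -0.05 (Myl1) in females. The actin covariate gave -0.11 (Myh4), -0.04 (Myl1), 0.09 (Myl2) and 0.13 (Myl3) over both sexes. In males it gave -0.12 (Acta1) and 0.16 (Myl3), and in females 0.19 (Myl2), 0.10 (Tnnc1) and 0.10 (Myl3). Leaving out arrays or series gave, over both sexes, -0.02 to 0.15 (Ckm), -0.03 to 0.10 (Myh4), 0.00 to 0.18 (Tnnt3), -0.67 to 0.19 (Myl2), -0.67 to 0.15 (Tnnc1) and -0.45 to 0.20 (Myl3). In males it gave -0.12 to 0.12 (Acta1), -0.10 to 0.08 (Myl1), -0.29 to 0.03 (Tnnt3), -1.34 to 0.26 (Myl2), -1.35 to 0.14 (Tnnc1) and -0.89 to 0.28 (Myl3), and in females -0.61 to 0.16 (Myl2), -0.49 to 0.20 (Tnnc1) and -0.56 to 0.16 (Myl3). None of these member values passed the threshold. Over all probe sets, calls over both sexes fell from 647 to 148 with no filter, 317 with no replicate block and 1 with the actin covariate. They fell to 30 without series 2 and to 20 without series 4. Spread between arrays limits the slow genes; whether the bright fast genes are compressed was not tested.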

Other observations

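Among myogenic factors, satellite cell genes and the developmental myosins, 10 of 11 measured genes lay above 0 in females against males, with a median log2 difference of 0.54. Of these, 8 had an unadjusted p under 0.05 and 0 passed limma's adjusted threshold, beside 13.9% and 0.133% of all probe sets. The lowest adjusted p was 0.198, for Myf6, a myogenic factor of mature fibres (0.78). Of the further skeletal muscle genes, 34 of 36 lay above 0 in the same contrast, with a median of 0.34. Trim63, a ubiquitin ligase of muscle wasting, had the largest difference among them (0.76, limma adjusted p = 0.179). All of these genes share the arrays and their scaling.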
